A study of Mus musculus with 9 samples.

Results

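The genes described here were those with more RNA in *Tnfaip2*-/- embryoid bodies than in wild-type bodies, both without and with PA/PC, the fatty acid palmitic acid (PA) and its carnitine ester palmitoyl-L-carnitine (PC). Embryoid bodies (EBs) are aggregates that embryonic stem (ES) cells form when they begin to differentiate. The genes were chosen by measured expression in all 3 groups, which is given here in CPM, the count of a gene divided by the total count of its library and multiplied by 1000000. A member had to be protein-coding, to reach a mean of 5 CPM in both knockout groups, and to have in each of them at least 1.4 times the mean of the wild-type group. Of 55471 genes in the table, 10005 protein-coding genes reached the floor, and 50 of these met both ratios (0.5%). Of the 10005 genes, 888 were at least 1.4 times higher without PA/PC and 438 with it, so that the members were 5.63% of the first and 11.4% of the second set. The limit of 300 genes was not reached.

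The 9 libraries fell into 3 groups of 3. WT were EBs of the parental mouse ES line E-14. KO were EBs of a *Tnfaip2*-/- clone of that line, made with CRISPR-Cas9, in which a frameshift leads to a stop codon in exon 2. KO_PAPC were EBs of the same clone with PA and PC at 8 μM each, whereas KO EBs received a vehicle according to a figure legend of the study. All EBs formed for 3 days in hanging drops of 1000 cells and then differentiated for 3 days on gelatin, and the replicates were separate pools of EBs. Both knockout groups thus share 1 clone and are set against the same 3 WT libraries, so the genotype, the clone and any difference in the handling of WT EBs cannot be told apart. As the methods are written, EBs formed in MEF medium when PA/PC was given and otherwise in ES cell medium, and the medium of the vehicle group at that step is not given in the sources used here. If that medium differed, PA/PC and medium cannot be told apart between KO_PAPC and KO. Changes with PA/PC below mean differences between these groups.

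*Tnfaip2* encodes a protein related to a subunit of the exocyst, the complex that tethers vesicles to the plasma membrane, and the study asked whether its loss holds ES cells in a pluripotent state and whether PA/PC relieves this. Palmitic acid is a saturated fatty acid, and palmitoyl-L-carnitine is the form in which it enters mitochondria for oxidation. When ES cells leave pluripotency, they silence the naive transcription factor network and switch on lineage genes, and many genes of signalling, adhesion and chromatin change with them.

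Depth was even, with 27362913 to 28914312 counts per library. *Tnfaip2* itself was near the floor, with 6 to 16 counts in WT, 5 to 8 in KO and 14 to 25 in KO_PAPC libraries, and gave no check of the knockout labels, since a frameshift need not lower the transcript. The summed level of 6 pluripotency markers was 2864 to 2906 CPM in WT, 4201 to 4211 in KO and 2778 to 2902 in KO_PAPC, so these markers were abundant in all 9 libraries. The sum of 3 neuroectoderm markers was 124 to 129 CPM in WT, 37.1 to 40.8 in KO and 203 to 206 in KO_PAPC. For 5 endoderm markers it was 82.8 to 87.2, 53.1 to 56.5 and 6.84 to 7.75 CPM, and for 4 mesoderm markers, 1 of which (*Mesp1*) stayed under 1 CPM throughout, it was 36.0 to 38.8, 24.0 to 24.3 and 46.9 to 50.1 CPM. These sums hide markers that differ from each other. Mean levels in WT, KO and KO_PAPC were 252, 508 and 125 CPM for *Zfp42* and 385, 778 and 287 CPM for *Nanog*, but 684, 696 and 843 CPM for *Pou5f1*. Among mesoderm markers *T* was highest in KO_PAPC (1.91, 0.292 and 15.5 CPM) and *Eomes* in WT (34.7, 22.6 and 29.1 CPM). The endoderm marker *Afp* was highest in KO (4.752, 11.01 and 1.144 CPM), whereas *Gata4*, *Gata6*, *Sox17* and *Foxa2* were lower in KO than in WT. Trophoblast markers (1 of 4 under 1 CPM throughout) summed to 3.20 to 5.98 CPM over all libraries. Of 4 blood markers 3 stayed under 1 CPM in every library, and the sum was at most 1.25 CPM. In bulk RNA, fewer cells of a type and less RNA per cell cannot be told apart.

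The measured values that chose the members are given as a description, without a test. KO/WT ratios ranged from 1.403 to 6.31 with a median of 1.71, and KO_PAPC/WT ratios from 1.41 to 3.52 with a median of 1.67. A ratio of at least 2 was reached by 16 members in KO, by 14 in KO_PAPC and by 5 in both, namely *Sema3e*, *Wt1*, *Lypd6*, *Fam131b* and *Thbs1*. Most members were not far above the limit, since the smaller of the 2 ratios was under 1.6 in 31. All 6 knockout libraries lay above all 3 WT libraries in 50 of 50 members, and in 8.63% of the 10005 genes. In edgeR's quasi-likelihood test, 73.8% of 17355 genes were called in KO versus WT (36.8% higher, 37.1% lower) and 70.6% of 16655 in KO_PAPC versus WT (34.2% higher, 36.4% lower), and all 50 members were among the higher ones in both. Since the same values chose the members, nothing is read from these counts. The lowest of the 6 knockout libraries was at least 1.4 times above the highest WT library in 30 members. Just inside the limit lay *Aacs* (smaller ratio 1.4028), *Plcg2* (1.4107) and *Dtx1* (1.4116), and just outside it *Iffo2* (1.3835), *Plvap* (1.3803) and *Pfdn4* (1.3802). Replicates were close, with a median coefficient of variation over the members of 4.20% in WT, 3.72% in KO and 3.96% in KO_PAPC.

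**Figure D1:**
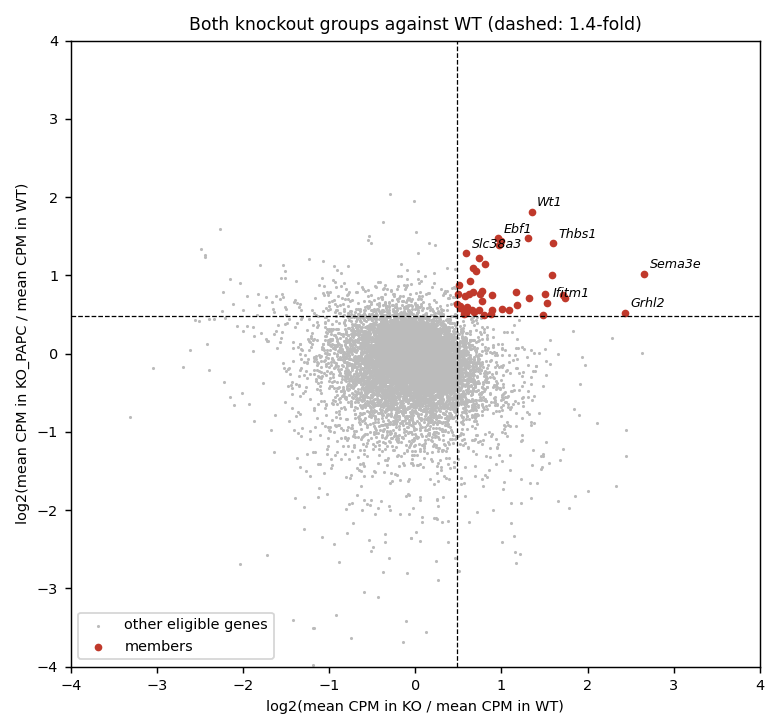
Log2 ratio of mean CPM to the WT mean in KO (x axis) and KO_PAPC (y axis) for 10005 protein-coding genes at or above 5 CPM in both knockout groups, of which 1 lies outside the axes. Dashed lines mark 1.4-fold, red points are 49 of the members (1 is not plotted), and both axes share the WT denominator; of these members, *Grhl2* and *Sema3e* extend furthest in KO and *Wt1* in KO_PAPC.

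Start-site windows of RefSeq (GRCm38.p6, 250 bases before to 50 after the start) were found for 34 of the 50 members, as 40 windows. Windows of 4 members with a single window and the highest smaller ratios are shown 5′ to 3′ on the strand of the gene, because they let the reader compare the sequence at members that were high in both knockout groups. Capitals mark matches on either strand to 7 motifs. They were the TATA box TATAAA, the box known as CCAAT, the E-box with the letters CACGTG, the cyclic AMP response element or TGACGTCA, the ETS motif searched as CCGGAAGT, the NRF1 motif searched as GCGCATGC and the GC box or GGGCGG. Windows could hold overlapping matches. The windows lie at chr6:42324591-42324890 (minus strand), chr5:14025026-14025325 (plus), chr2:50066179-50066478 (plus) and chr9:71771553-71771852 (minus).
Fam131b: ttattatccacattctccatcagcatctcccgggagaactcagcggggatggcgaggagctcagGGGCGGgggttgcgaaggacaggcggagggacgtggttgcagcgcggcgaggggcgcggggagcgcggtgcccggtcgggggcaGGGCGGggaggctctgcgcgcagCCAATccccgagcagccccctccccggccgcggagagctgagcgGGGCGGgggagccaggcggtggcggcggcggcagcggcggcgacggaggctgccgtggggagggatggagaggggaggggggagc
Sema3e: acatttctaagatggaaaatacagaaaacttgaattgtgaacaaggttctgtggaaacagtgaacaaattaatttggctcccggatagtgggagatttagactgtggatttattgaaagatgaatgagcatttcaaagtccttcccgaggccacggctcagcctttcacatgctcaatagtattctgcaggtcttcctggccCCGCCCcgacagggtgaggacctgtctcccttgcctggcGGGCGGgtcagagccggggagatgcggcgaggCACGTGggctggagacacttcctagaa
Lypd6: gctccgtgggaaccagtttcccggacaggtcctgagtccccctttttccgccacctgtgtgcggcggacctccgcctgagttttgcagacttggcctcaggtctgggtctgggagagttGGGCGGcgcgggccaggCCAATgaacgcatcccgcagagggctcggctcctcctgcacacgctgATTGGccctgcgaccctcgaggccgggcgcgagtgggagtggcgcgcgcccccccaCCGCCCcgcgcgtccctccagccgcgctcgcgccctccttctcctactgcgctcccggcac
Cgnl1: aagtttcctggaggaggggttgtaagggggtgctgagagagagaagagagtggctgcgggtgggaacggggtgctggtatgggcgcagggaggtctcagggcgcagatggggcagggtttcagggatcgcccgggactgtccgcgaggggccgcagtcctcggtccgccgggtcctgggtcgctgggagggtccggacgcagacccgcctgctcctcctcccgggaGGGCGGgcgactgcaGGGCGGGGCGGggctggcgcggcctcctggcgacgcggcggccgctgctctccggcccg
The *Fam131b* window held 3 GC boxes and 1 CCAAT, that of *Lypd6* 2 of each and that of *Cgnl1* 3 GC boxes, 2 of which overlap. *Sema3e* had 2 GC boxes and 1 E-box, and only 11 CG dinucleotides against 34, 31 and 30 in *Fam131b*, *Lypd6* and *Cgnl1*.

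Over the 40 windows the motifs were unevenly present, which is a description of letters and not of binding. GC boxes stood in 25 windows (62.5%), against 66.5% of 10306 windows of genes at the expression floor and 35.7% of all 32851 windows. CCAAT stood in 19 (47.5%, against 38.4% and 37.4%), the E-box in 6 (15.0%, against 10.4% and 7.15%) and the cyclic AMP response element in 2 (5.0%, against 3.26% and 1.79%). No member window held the TATA box (6.25% and 13.6%), the ETS motif (9.0% and 3.89%) or the NRF1 motif (5.84% and 2.71%). The median number of CG dinucleotides was 16 in member windows, 22 in windows of genes at the floor and 7 in all windows. The exons of members had a median GC content of 52.5%, against 49.7% for genes at the floor and 49.5% for the 838 genes high in KO alone, and a median length of 5330, 4721 and 5222 bases. The members were spread over 16 chromosomes, with 8 on chromosome 7 (of 776 genes at the floor), 6 on chromosome 2 and 4 on the X. Only 2 pairs lay within 100 kb of each other, *Fam131b* and *Epha1* with 33844 bases between them, and *E2f8* and *Nav2* with 27120.

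KO_PAPC was also compared with KO, a contrast that the rule did not use directly. Both groups had to exceed the same limit over WT, however, so the rule bounded how far a member could fall or rise between them. The shares of members called, higher or lower are therefore a description and not a test of the members as a set. By the same edgeR test, with a call at an adjusted p under 0.05, 42 of the 50 members differed (84.0%), against 81.8% of 17167 genes tested. Of these, 26 were higher with PA/PC (52.0%, against 39.6% of all genes) and 16 lower (32.0%, against 42.2%). All genes here include those under the 5 CPM floor, which could not be members, so the sets compared are unlike. The median log2 fold change was 0.14 over the members and -0.02 over all genes. This split depends on the scaling. With library totals in place of TMM factors, which moved the median gene by -0.17, 18 members were called higher and 19 lower. The members' median was then -0.03. Over all genes, the calls went from 6801 higher and 7246 lower to 5317 higher and 8684 lower. On the CPM scale, the 3 KO_PAPC libraries lay above the 3 KO libraries for 18 members, below them for 22 and overlapped for 10, so that 80.0% did not overlap against 82.1% of all genes. Without a minimum change, the members were therefore called about as often as all genes. Fold changes below are of KO_PAPC over KO on the log2 scale, from this test, and where a called change is given without its p, the adjusted p was at most 0.000996. When a minimum change of 1.4-fold was tested, 12 of the 50 members remained called, a smaller share than the 7587 of 17167 genes tested. *Grhl2*, *Sema3e*, *Ptpru*, *Dtx1*, *Hist1h1c* and *Ifitm1* were lower, and *Slc38a3*, *Ebf1*, *Mmp25*, *Wt1* and *Nav2* were among the 6 higher.

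**Figure D2:**
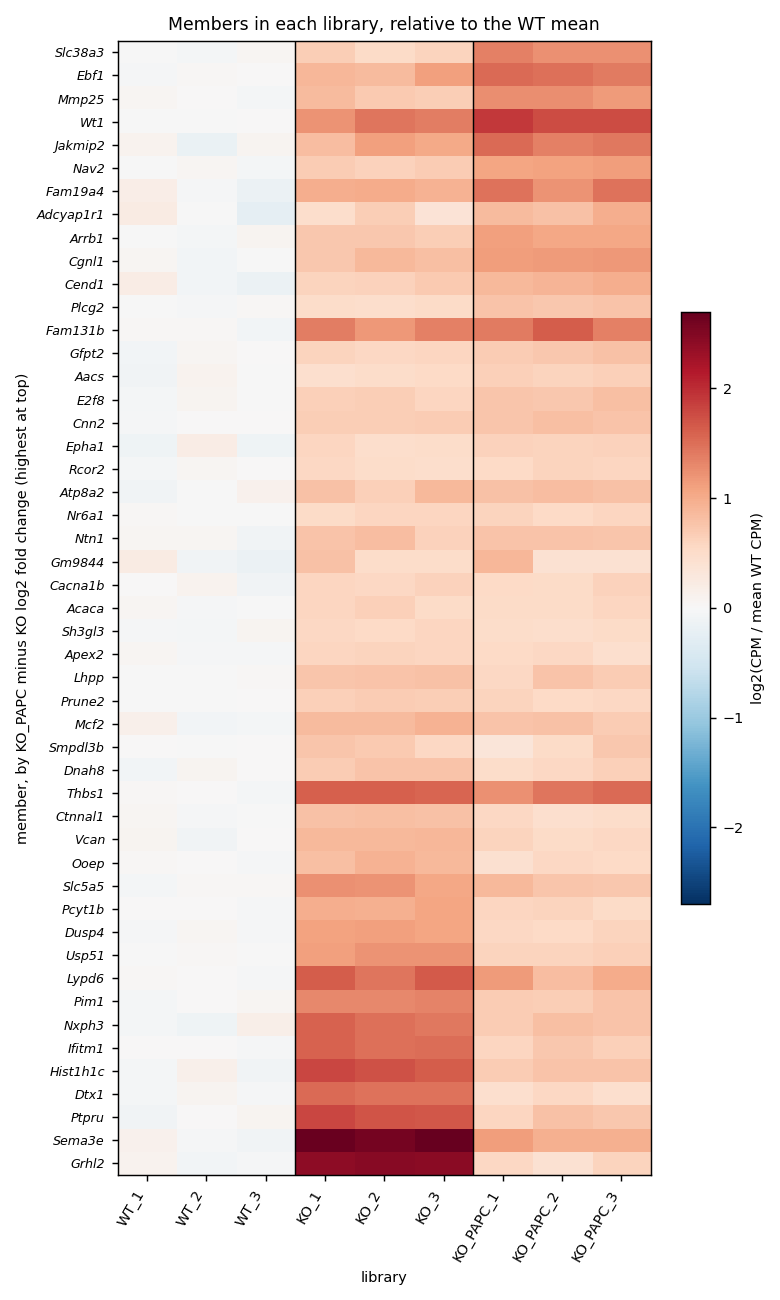
Log2 ratio of each library's CPM to the WT mean for 49 of the members (rows, ordered by their KO_PAPC minus KO log2 fold change) in 9 libraries (columns). Red is above and blue below the WT mean; the 6 knockout columns are red in every row, darkest at the bottom in KO (*Grhl2*, *Sema3e*) and near the top in KO_PAPC (*Wt1*).

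The members were first set against 87 lists of pathways, complexes and families. Only 14 lists held a member, 12 of them a single one, and 33 of the 50 members stood in no list. The list of neuronal synapse and axon genes held 3 (*Sema3e*, *Ntn1* and *Epha1*) of its 44 genes at the floor, and the solute carriers held 2 (*Slc5a5* and *Slc38a3*) of 177. No member was among 19 naive and 19 core pluripotency genes at the floor, nor among 14 formative epiblast, 329 zinc finger, 91 cytosolic ribosomal protein, 110 splicing, 86 respiratory chain or 34 fatty acid oxidation genes. Members were only 0.5% of all 10005 genes at the floor, so short lists would mostly hold none at that share. No single list covered the members. They are described below in groups by known role that were formed after their values had been seen.

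Regulators of transcription, chromatin or DNA were 9 of the members, and all 9 were called between KO_PAPC and KO, 6 higher and 3 lower. In this contrast 81.8% of all genes tested were called. *Rcor2* (ENSMUSG00000024968, chr19:7267325-7275225), a corepressor partner of the histone demethylase LSD1 that is abundant in ES cells, had the highest mean of all members and held 177, 192 and 185 in WT, 274, 262 and 256 in KO, and 269, 282 and 278 in KO_PAPC (CPM). *Nr6a1* (chr2:38723370-38927688), or germ cell nuclear factor, a receptor-type repressor that silences *Pou5f1* as cells differentiate, held 145, 142 and 141 in WT, 203, 214 and 212 in KO, and 216, 207 and 214 in KO_PAPC (CPM). In both genes the knockout groups overlapped on the CPM scale and, as in every member, stood clear of WT. Their log2 fold changes with PA/PC were 0.23 ± 0.0280 (SE, adjusted p = 2.03e-09) and 0.18 ± 0.0281 (SE, adjusted p = 2.86e-07), and the second was not called with library totals (adjusted p = 0.585). *Grhl2* (ENSMUSG00000022286, chr15:37233036-37363569), which drives epithelial genes such as E-cadherin in epithelia and the epiblast, held 13.97, 12.6 and 13.0 in WT, 69.8, 72.7 and 71.5 in KO, and 19.4, 17.5 and 19.9 in KO_PAPC (CPM). It stood 5.42 times the WT mean in KO and 1.44 times in KO_PAPC, so most of the excess in KO was absent with PA/PC, with the largest fall of all members, a change of -1.75 ± 0.0464 (SE, adjusted p = 1.7e-28). The KO_PAPC libraries lay above every WT library, as they did in all 50 members, which the rule chose for means above WT.

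*Wt1* and *Ebf1*, transcription factors of later tissues, rose further with PA/PC. *Wt1* (chr2:105126529-105173616), the Wilms tumour factor of the kidney and gonad, held 4.48, 4.49 and 4.53 in WT, 10.5, 12.3 and 11.7 in KO, and 16.9, 15.3 and 15.4 in KO_PAPC (CPM). *Ebf1* (chr11:44617317-45008091), a helix-loop-helix factor best known from B cells and also active in neural and mesenchymal cells, held 5.04, 5.28 and 5.21 in WT, 9.70, 9.39 and 11.1 in KO, and 15.0, 14.4 and 13.7 in KO_PAPC (CPM). For both genes all 3 groups were separate, and the changes with PA/PC were 0.63 ± 0.0696 (SE, adjusted p = 2.58e-10) and 0.68 ± 0.0728 (SE, adjusted p = 1.25e-10). *E2f8*, an atypical E2F repressor of the cell cycle, averaged 31.6 ± 1.59 CPM in WT against 48.8 ± 1.42 in KO and 53.8 ± 1.83 in KO_PAPC (SD, n = 3) and rose by 0.31 ± 0.0401. *Hist1h1c*, a linker histone gene, held 4.80, 5.54 and 4.67 in WT, 17.4, 16.4 and 15.4 in KO, and 7.99, 8.55 and 8.58 in KO_PAPC (CPM) and had a log2 fold change with PA/PC of -0.81 ± 0.0723 (SE, adjusted p = 1.36e-12). Of 44 histone genes tested 23 were higher and 9 lower in that contrast, with a median of 0.46, but of the 12 at the 5 CPM floor 5 were higher and 7 lower (median -0.17). The lower ones included the other linker histone genes at the floor, *H1f0* (-1.21) and *H1fx* (-0.15). Mean levels of *Usp51*, which removes ubiquitin from histone H2A, were 3.43, 7.78 and 5.26 CPM in WT, KO and KO_PAPC, and those of *Apex2*, a DNA repair endonuclease, 22.5, 33.7 and 32.3 CPM. *Usp51* fell by 0.40 ± 0.0914 on the log2 scale with PA/PC. The rise of *Apex2* (0.10 ± 0.0459, adjusted p = 0.037) was lost when any 1 of 5 libraries was left out (KO replicates 1, 2 and 3, KO_PAPC replicates 1 and 2; adjusted p between 0.0513 and 0.0922) or DESeq2 was used (adjusted p = 0.144), and turned to -0.06 with library totals.

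Signalling enzymes, receptors and their adaptors made up 12 members, of which 5 were higher, 5 lower and 2 not called with PA/PC. In this contrast 81.8% of all genes tested were called, 39.6% higher and 42.2% lower. *Ifitm1* (ENSMUSG00000025491, chr7:140967221-140969825), an interferon-inducible membrane protein also known from the epiblast and early germ cells, was the member with the most RNA per exon length in KO, at 144 CPM per kb. It held 55.5, 55.0 and 54.0 in WT, 165, 153 and 155 in KO, and 82.2, 91.3 and 85.1 in KO_PAPC (CPM). All 3 groups were separate, and the log2 fold change with PA/PC was -0.71 ± 0.0351 (SE, adjusted p = 5.16e-20). Of 68 genes of interferon response and antigen presentation, 18 were higher and 41 lower in this contrast, with a median of -0.52, and of the 24 at the floor 10 were higher and 10 lower (median 0.05). *Pim1* (chr17:29490753-29496112), a kinase gene induced through STAT3 by the cytokine LIF, held 29.6, 30.9 and 31.9 in WT, 76.0, 76.1 and 78.0 in KO, and 49.5, 48.5 and 52.6 in KO_PAPC (CPM), with a change of -0.45 ± 0.0377 (SE, adjusted p = 2.76e-13). It was the only member of the LIF and STAT3 list, where 5 genes were higher and 8 lower of 15 tested (median -0.23). Of the 12 at the floor 5 were higher and 6 lower (median -0.09). *Dusp4* (chr8:34807297-34819894), a phosphatase that switches off ERK and is itself induced by it, held 51.3, 54.1 and 50.9 in WT, 111, 112 and 109 in KO, and 76.3, 76.0 and 78.6 in KO_PAPC (CPM). The 3 groups did not overlap, and the change with PA/PC was -0.36 ± 0.0322 (SE, adjusted p = 1.41e-12). In the FGF and ERK list 24 of 45 genes were higher and 17 lower, with a median of 0.11, and of the 34 at the floor 21 were higher and 11 lower (median 0.39).

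Members linked to receptors at the cell surface moved both ways. *Dtx1* (chr5:120680202-120711927), a ubiquitin ligase and target of Notch, held 17.9, 19.6 and 18.1 in WT, 53.1, 51.4 and 50.9 in KO, and 25.5, 27.5 and 25.4 in KO_PAPC (CPM). With PA/PC it fell by 0.82 ± 0.0450 (SE, adjusted p = 1.01e-18), and its KO_PAPC/WT ratio of 1.41 lay at the limit. *Ptpru* (chr4:131768457-131838288), a receptor tyrosine phosphatase that binds at cell contacts, held 7.97, 8.63 and 8.95 in WT, 29.9, 27.6 and 27.4 in KO, and 12.8, 14.7 and 14.2 in KO_PAPC (CPM), and fell by 0.86 ± 0.0600 (SE, adjusted p = 1.15e-15). In the opposite direction, *Plcg2* (chr8:117498291-117635142), a phospholipase acting below immune receptors, averaged 60.3 ± 1.16 CPM in WT against 85.1 ± 1.68 in KO and 102 ± 1.46 in KO_PAPC (SD, n = 3), with a rise of 0.43 ± 0.0321. Among blood markers *Ptprc* was at most 0.0357 CPM in any library, and *Gata1* averaged 0.538, 1.04 and 0.278 CPM in WT, KO and KO_PAPC. Which cells the *Plcg2* RNA came from was not tested. *Arrb1*, the beta-arrestin that uncouples G protein-coupled receptors, averaged 22.8, 37.2 and 47.7 CPM in WT, KO and KO_PAPC and rose by 0.52 ± 0.0416. The receptor for the neuropeptide PACAP, *Adcyap1r1*, averaged 3.74, 5.33 and 6.86 CPM and rose by 0.53 ± 0.0984. *Mcf2*, an exchange factor of small GTPases (22.2, 41.0 and 37.4 CPM), and *Lhpp*, a histidine phosphatase (14.8, 25.3 and 23.6 CPM), were not called, with log2 fold changes of 0.03 ± 0.0441 (SE, adjusted p = 0.511) and 0.07 ± 0.0542 (SE, adjusted p = 0.235). *Lhpp* was called higher without KO_PAPC replicate 1 (adjusted p = 0.0255), and *Mcf2* turned to a called -0.14 with library totals (adjusted p = 0.00566).

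**Figure D3:**
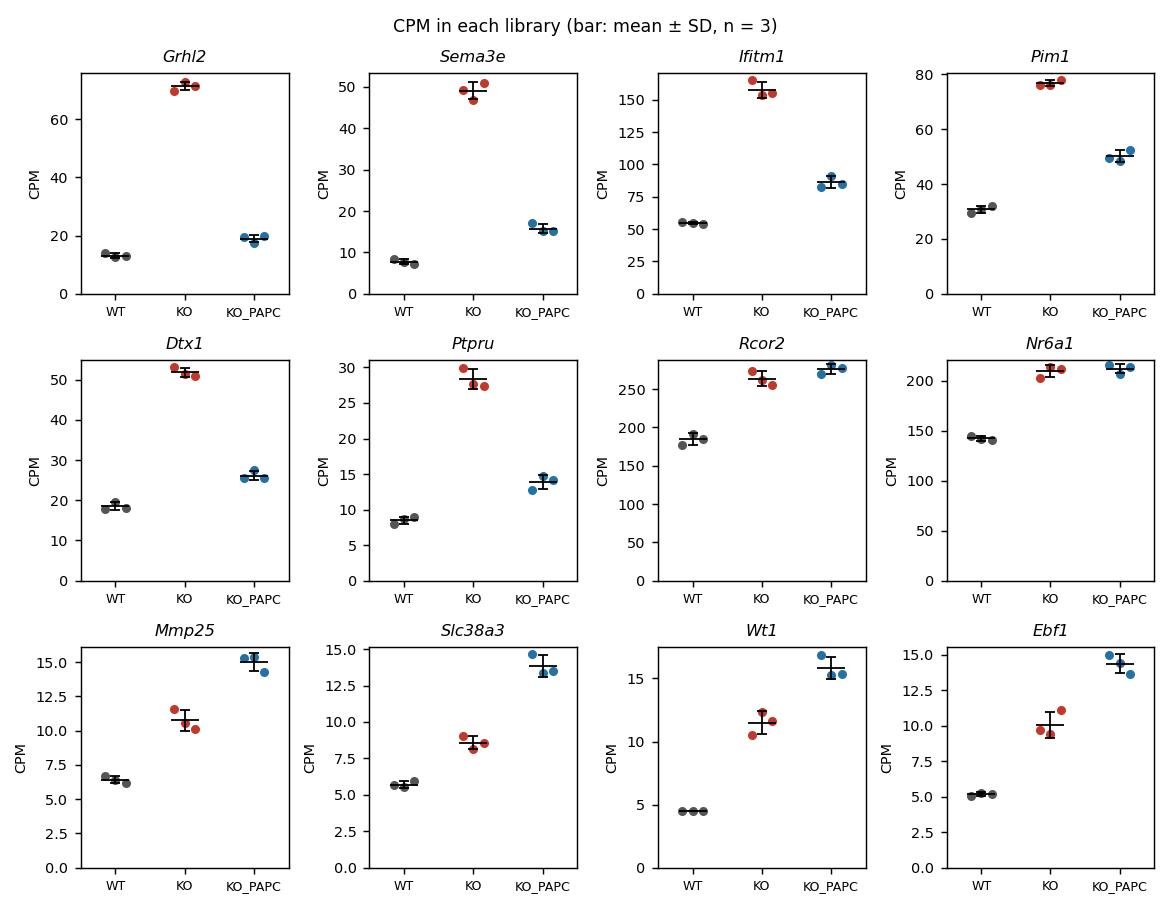
CPM in each library of WT, KO and KO_PAPC for 12 members, with the mean and SD of 3 libraries as a bar. The upper 6 panels are members that were lower with PA/PC than without, *Rcor2* and *Nr6a1* have overlapping knockout libraries, and the last 4 panels are members that were higher with PA/PC; every knockout point lies above the WT points.

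Members known from axon guidance or neurons numbered 10, and *Epha1*, counted above among the receptors, also guides axons. All 10 were called, 7 higher and 3 lower with PA/PC, in a contrast where 81.8% of all genes tested were called. *Sema3e* (ENSMUSG00000063531, chr5:14025276-14256689), a secreted semaphorin that repels axons and vessels through plexin D1, held 8.43, 7.58 and 7.28 in WT, 49.4, 46.8 and 50.9 in KO, and 17.0, 15.1 and 15.2 in KO_PAPC (CPM). It stood 6.31 times the WT mean in KO, the highest KO ratio of all members, and 2.03 times in KO_PAPC. With PA/PC it fell by 1.47 ± 0.0527 (SE, adjusted p = 2.06e-24) on the log2 scale, to a level above WT as the rule required. Its start-site window, shown above, was the poorest in CG of the 4. *Ntn1* (chr11:68209364-68400823), the guidance cue netrin 1, held 13.97, 14.02 and 12.6 in WT, 23.2, 24.1 and 20.7 in KO, and 22.9, 23.1 and 22.6 in KO_PAPC (CPM). Its knockout groups overlapped, and the change of 0.18 ± 0.0565 (SE, adjusted p = 0.00425) was not called without KO replicate 3 (adjusted p = 0.081) or with library totals (adjusted p = 0.842). *Epha1* (chr6:42358487-42373268), an ephrin receptor, held 6.88, 8.59 and 6.92 in WT, 11.2, 10.3 and 10.5 in KO, and 11.5, 11.3 and 11.4 in KO_PAPC (CPM), with a change of 0.26 ± 0.0711 (SE, adjusted p = 0.00106) that library totals did not call (adjusted p = 0.209). In the whole list of neuronal synapse and axon genes, 40 of 93 were higher with PA/PC and 35 lower, with a median of 0.18. Of the 44 at the floor 26 were higher and 13 lower (median 0.26).

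The remaining neuronal members moved both ways with PA/PC. *Nxph3*, a ligand of neurexins, held 4.59, 4.35 and 5.29 in WT, 14.3, 13.3 and 12.7 in KO, and 7.63, 8.30 and 8.11 in KO_PAPC (CPM) and fell by 0.58 ± 0.0757, as did *Lypd6*, a membrane-anchored modulator of Wnt and nicotinic receptors, which held 2.61, 2.59 and 2.50 in WT, 7.95, 6.96 and 8.13 in KO, and 5.72, 4.57 and 5.17 in KO_PAPC (CPM) and fell by 0.41 ± 0.0987. *Nav2* (chr7:48908716-49610090), a microtubule-associated protein of growing neurites, held 9.10, 9.49 and 8.84 in WT, 14.7, 14.1 and 14.7 in KO, and 19.15, 19.5 and 20.1 in KO_PAPC (CPM), and all 3 groups were separate, with a rise of 0.60 ± 0.0592 (SE, adjusted p = 1.66e-11). Rises were also called for the chemokine-like *Fam19a4* (0.58 ± 0.0907), for *Jakmip2* of the Golgi and microtubules (0.61 ± 0.0939) and for *Cend1*, which accompanies cell cycle exit of neurons (0.45 ± 0.0885). Means in WT, KO and KO_PAPC were 3.16, 6.20 and 8.26 CPM for *Fam19a4*, 2.83, 5.64 and 7.68 CPM for *Jakmip2* and 3.97, 6.19 and 7.55 CPM for *Cend1*. The N-type calcium channel gene *Cacna1b* (15.4, 23.2 and 22.8 CPM) and the endophilin gene *Sh3gl3* (32.5, 48.0 and 46.0 CPM) were called higher by only 0.14 ± 0.0532 (SE, adjusted p = 0.0144) and 0.10 ± 0.0394 (SE, adjusted p = 0.0145), and both turned to values below 0 (-0.02 and -0.06) with library totals. Neither *Cacna1b* (adjusted p = 0.0673) nor *Sh3gl3* (adjusted p = 0.0612) was called without KO replicate 2, nor *Cacna1b* without KO_PAPC replicate 3 (adjusted p = 0.0711), and DESeq2 called neither (adjusted p = 0.0893 and 0.069). The neuroectoderm markers given above were lowest in KO, where these members stood above WT.

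Extracellular matrix, adhesion and the cytoskeleton accounted for 7 members, 3 higher, 2 lower and 2 not called with PA/PC. Of all genes tested there, 39.6% were called higher and 42.2% lower. *Vcan* (chr13:89655312-89742509), the large proteoglycan versican, held 58.7, 52.5 and 56.0 in WT, 102, 103 and 104 in KO, and 84.3, 80.3 and 82.0 in KO_PAPC (CPM) and fell by 0.16 ± 0.0323 (SE, adjusted p = 3.4e-05). *Thbs1* (chr2:118111876-118127133), thrombospondin 1, a matrix protein that activates TGF-beta, held 2.05, 2.01 and 1.92 in WT, 6.13, 6.10 and 5.95 in KO, and 4.72, 5.41 and 5.78 in KO_PAPC (CPM). No difference between the knockout groups was called for *Thbs1*, at -0.03 ± 0.0994 (SE, adjusted p = 0.81). *Cnn2* (chr10:79988584-79996062), an actin-binding calponin, averaged 93.4 ± 1.36 CPM in WT against 149 ± 1.16 in KO and 161 ± 4.11 in KO_PAPC (SD, n = 3) and rose by 0.28 ± 0.0289. *Cgnl1* (chr9:71626509-71771602), a paracingulin of tight and adherens junctions, held 41.0, 37.5 and 39.2 in WT, 65.0, 72.2 and 68.6 in KO, and 85.2, 87.2 and 88.8 in KO_PAPC (CPM), with all 3 groups separate and a rise of 0.51 ± 0.0365 (SE, adjusted p = 2.51e-15). *Mmp25* (chr17:23628311-23645277), a membrane-anchored metalloprotease, held 6.70, 6.43 and 6.16 in WT, 11.6, 10.5 and 10.1 in KO, and 15.3, 15.4 and 14.3 in KO_PAPC (CPM) and rose by 0.65 ± 0.0698 (SE, adjusted p = 1.48e-10), whereas 53 of 85 genes in its list of serpins and proteases were lower and 17 higher (median -0.52), and of the 29 at the floor 14 were lower and 10 higher (median -0.10). *Ctnnal1*, alpha-catulin, fell by 0.13 ± 0.0341 from a KO mean of 87.5 CPM against 50.5 CPM in WT. *Dnah8*, a heavy chain of ciliary dynein (10.0, 16.8 and 14.8 CPM), was not called, at -0.01 ± 0.0629 (SE, adjusted p = 0.843), except with library totals (-0.18, adjusted p = 0.00898). The 6 fibroblast markers summed to 8.70 to 9.38 CPM in WT, 16.3 to 17.9 in KO and 11.2 to 12.6 in KO_PAPC, but did not move together. Most of the excess in KO was *Thy1* (means of 4.38, 11.6 and 4.82 CPM in WT, KO and KO_PAPC), *Col1a2* was lower in KO than in WT (2.35, 1.78 and 2.65 CPM), and *Col3a1*, *Dcn* and *Postn* stayed under 1 CPM in all libraries. In a wider fibroblast list 2 of 8 genes were higher and 6 lower in KO versus WT (median -0.42), and 8 of 10 were higher and 2 lower in KO_PAPC versus WT (median 0.59). The part of these markers in the result was not tested.

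Metabolic enzymes and transporters were 8 members, of which 4 were higher, 2 lower and 2 not called with PA/PC. Of all genes tested there, 39.6% were called higher and 42.2% lower. Several of these members act on lipids. *Acaca*, acetyl-CoA carboxylase, which makes the malonyl-CoA for fatty acid synthesis, averaged 22.3 ± 0.710 CPM in WT against 33.3 ± 1.49 in KO and 32.5 ± 0.930 in KO_PAPC (SD, n = 3), and *Aacs* (chr5:125475814-125517410), which activates acetoacetate for lipid synthesis, averaged 35.0 ± 2.26 CPM in WT against 49.1 ± 1.45 in KO and 54.3 ± 0.918 in KO_PAPC (SD, n = 3). Their changes with PA/PC were 0.13 ± 0.0473 (SE, adjusted p = 0.0113) and 0.31 ± 0.0390 (SE, adjusted p = 5.24e-09), the first of which turned to -0.04 with library totals and was not called without KO replicate 3 (adjusted p = 0.0961) or by DESeq2 (adjusted p = 0.0675). *Acaca* was the only one of 21 fatty acid synthesis genes at the floor among the members, and of 23 tested genes of that list 13 were higher and 7 lower with PA/PC (median 0.13). *Pcyt1b* (chrX:93654863-93749951), an enzyme that makes CDP-choline for phosphatidylcholine, held 30.6, 30.4 and 29.6 in WT, 59.6, 58.6 and 63.2 in KO, and 45.2, 45.6 and 43.5 in KO_PAPC (CPM) and fell by 0.27 ± 0.0401 (SE, adjusted p = 1.62e-07). *Smpdl3b*, a phosphodiesterase that acts in sphingolipid metabolism (5.71, 9.12 and 8.29 CPM), and *Atp8a2*, a phospholipid flippase (3.30, 5.66 and 5.74 CPM), were not called, at 0.03 ± 0.0891 (SE, adjusted p = 0.767) and 0.18 ± 0.0978 (SE, adjusted p = 0.0801).

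The sugar enzyme and the transporters differed among themselves. *Gfpt2* (chr11:49794178-49838613), which commits fructose 6-phosphate to the hexosamine pathway, averaged 41.1 ± 1.71 CPM in WT against 61.6 ± 0.659 in KO and 68.6 ± 2.13 in KO_PAPC (SD, n = 3) and rose by 0.32 ± 0.0363 (SE, adjusted p = 3.9e-10). *Slc38a3* (chr9:107650634-107669530), a glutamine transporter, held 5.64, 5.50 and 5.94 in WT, 9.03, 8.14 and 8.58 in KO, and 14.7, 13.3 and 13.5 in KO_PAPC (CPM), with all groups separate and a rise of 0.85 ± 0.0735 (SE, adjusted p = 4.3e-13). The sodium-iodide symporter gene *Slc5a5* (chr8:70882889-70892757) held 3.88, 4.10 and 4.13 in WT, 9.49, 9.35 and 8.37 in KO, and 7.42, 6.80 and 6.64 in KO_PAPC (CPM) and fell with PA/PC by 0.22 ± 0.0855 (SE, adjusted p = 0.0201), a call lost in DESeq2 (adjusted p = 0.158) and without KO replicate 1 or 2 or KO_PAPC replicate 2 or 3 (adjusted p between 0.0643 and 0.096). Of 288 solute carriers tested, 81 were higher and 172 lower with PA/PC, with a median of -0.34, against 39.6% and 42.2% of all genes. Only 177 solute carriers could have been members by the 5 CPM floor, so the 288 are an unlike set.

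The other 4 members had none of these roles. *Ooep*, a maternal-effect gene of the oocyte and early embryo, averaged 26.6 ± 0.554 CPM in WT against 48.7 ± 2.05 in KO and 37.8 ± 1.81 in KO_PAPC (SD, n = 3) and fell by 0.20 ± 0.0443. *Fam131b* (chr6:42315312-42324643), of little known function, held 2.86, 2.88 and 2.68 in WT, 7.32, 6.28 and 7.23 in KO, and 7.42, 8.77 and 7.21 in KO_PAPC (CPM), one of the largest smaller ratios, and its rise of 0.33 ± 0.0925 (SE, adjusted p = 0.00141) was not called with library totals (adjusted p = 0.0978). *Prune2*, a large protein of neurons and other tissues (34.3, 54.3 and 50.7 CPM), was not called, at 0.07 ± 0.0388 (SE, adjusted p = 0.113), but was called higher without KO_PAPC replicate 2 (adjusted p = 0.0454) and turned to a called -0.10 with library totals (adjusted p = 0.018). The predicted gene *Gm9844* (6.58, 10.00 and 9.92 CPM) was not called either, at 0.15 ± 0.0972 (SE, adjusted p = 0.138), except without KO replicate 1 or KO_PAPC replicate 2 or 3 (adjusted p between 0.0201 and 0.0319). Of the transcript words of *Gm9844*, 60.2% occur in other genes, as do 30.3% for *Acaca* and 14.7% for *Atp8a2*, so the counts of these 3 genes are uncertain. *Pim1*, *E2f8*, *Fam131b* and *Atp8a2* share over 10% of their exon bases with another gene, and the libraries did not keep strand.

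**Figure D4:**
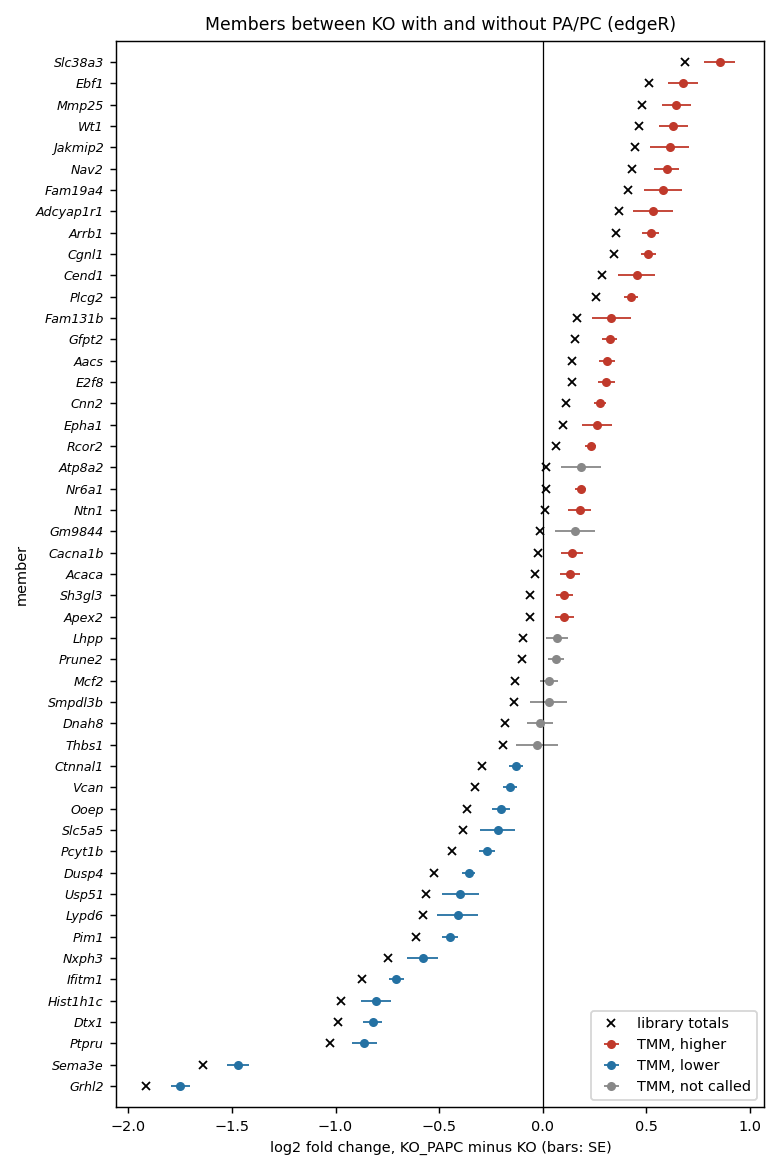
Log2 fold change of KO_PAPC minus KO for 49 of the members, by edgeR with TMM factors (points, with the SE as bars, red for called higher, blue for called lower, grey for not called) and with library totals (crosses). The points run from -1.75 (*Grhl2*) to 0.85 (*Slc38a3*), and the crosses lie to the left of the points for every member plotted.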

How the data were processed

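RNA was sequenced from EBs as 51-cycle single-end reads of unstranded libraries. The authors mapped reads to GRCm38 with STAR 2.7.2b and made the deposited counts per Ensembl gene with featureCounts 1.6.5, versions as in the submitters' processing notes, and for the first comparison with WT an earlier pipeline is also described. Deposited counts were whole numbers, not normalized. Symbols, positions and biotypes were joined by Ensembl ID from GENCODE M21 of the same build, and 241 of 55471 IDs had no match. All per-sample columns were used.

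The members, lists, roles and naming rules were chosen with earlier results of these data known. Named were the members highest in KO, those with the largest ratios, the largest changes with PA/PC and those nearest the limit, and the rest were added by role after their values were seen. Values of 1 member, which is counted in the totals, are not reported here. The 6 libraries of a contrast were fitted alone in edgeR 4.0.16 (R 4.3.3; quasi-likelihood F test, TMM, filterByExpr, Benjamini-Hochberg adjustment), with no covariate. The study used DESeq2. The SE is the log2 fold change divided by the square root of F. P-values measure the spread between pools of EBs of 1 clone. A single value compared between 3 and 3 libraries cannot reach a permutation p under 0.1. The fit was tested on simulated data. Replicates within groups differed by more than counting error. Shared words are 51-base stretches of a gene's transcripts that occur in another gene. Alternatives were DESeq2 1.42.0, RLE factors, library totals, other filters, a joint fit, the replicate number as a block, a tested minimum fold, other limits of the rule, thinned counts and leaving out each library.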

Additional observations from a re-analysis of the deposited data

How the results depend on the processing

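The number of genes meeting the rule depended most on its limits. It was 77 with CPM from RLE library sizes, 28 with a minimum ratio of 1.5, 5 with a ratio of 2, 97 with a floor of 1 CPM and 30 when the lowest knockout library had to exceed the highest WT library by 1.4 times. With TMM library sizes it was 68, of which 47 were members (*Plcg2* and *Aacs* were among those that dropped out), and with RLE all 50 remained. Leaving out 1 library gave 48 to 51 genes, and 38 members were in all 9 of those lists. With a minimum ratio of 2, the number of lists with 2 or more members was 0.

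A tested minimum fold of 1.4 called 4609 genes between KO and WT, 3808 between KO_PAPC and WT and 12 members in KO_PAPC versus KO, 6 higher and 6 lower. Of all genes it called 7587 in KO_PAPC versus KO, 3274 higher and 4313 lower. Leaving out 1 library called 38 to 42 members, 23 to 27 higher and 15 to 16 lower, and 13785 to 14137 of all genes in that contrast. Over all genes it called 12382 to 12820 between KO and WT and 11208 to 11654 between KO_PAPC and WT. Library totals reversed *Prune2* (-0.10), *Sh3gl3* (-0.061), *Mcf2* (-0.135), *Apex2* (-0.063), *Acaca* (-0.035) and *Cacna1b* (-0.024), and, among members called in neither fit, *Lhpp* (-0.097), *Smpdl3b* (-0.137) and *Gm9844* (-0.011). Members that were not called also changed sign when 1 library was left out, *Dnah8* (-0.047 to 0.034, and 0.01 with no filter), *Smpdl3b* (-0.069 to 0.133), *Gm9844* (-0.007 to 0.259, called at its highest values) and *Thbs1* (-0.084 to 0.063). DESeq2 called 37 members, all among the 42, and did not call *Acaca*, *Apex2*, *Cacna1b*, *Sh3gl3* and *Slc5a5*. Over all genes it called 13509, against 14047 by edgeR. With the replicate block 41 members and 13822 of all genes were called, and among members only the call of *Apex2* was lost (adjusted p = 0.0565). The numbers were not taken to pair the KO and KO_PAPC libraries, since same-numbered libraries deviated from their group means with correlations of -0.28, 0.0024 and -0.086 (-0.293, -0.0016 and -0.111 for WT and KO, and 0.436, 0.305 and 0.0346 for WT and KO_PAPC), and 0 of 3 KO libraries correlated best with the KO_PAPC library of their own number. Of 650 refits of single members under the alternatives other than the tested minimum fold, 602 kept direction and call. The cause of these changes was not tested. The lowest count of a member in any WT library was 53.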

Other observations

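Genes of other biotypes also passed the 5 CPM floor and both ratios, and there were 4 of them. *Gm26917* (chr17:39843013-39846341), annotated here as a long noncoding RNA, held 275, 327 and 319 CPM in WT, 870, 834 and 814 CPM in KO and 1463, 1631 and 1618 CPM in KO_PAPC. Which RNA these counts came from was not tested. All 3 groups were separate, and *Gm26917* stood further from WT in KO_PAPC than in KO. The mitochondrial transfer RNA genes *mt-Ta* and *mt-Tc*, which lie close together on the mitochondrial genome, averaged 17.1 ± 0.884 and 20.2 ± 0.526 CPM in WT, 29.6 ± 1.07 and 36.6 ± 1.20 CPM in KO and 31.1 ± 2.52 and 39.7 ± 1.06 CPM in KO_PAPC (SD, n = 3). By contrast, all mitochondrial genes together took 1.85% to 1.87% of counts in WT, 1.96% to 1.98% in KO and 1.26% to 1.34% in KO_PAPC. *Zswim6*, annotated here as a processed transcript, averaged 32.2 ± 1.57, 55.3 ± 1.04 and 47.3 ± 1.01 CPM.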
